A study of Mus musculus with 48 samples.

Results

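RNA of whole mouse skin was measured for 10 genes of blood and lymph vessels, named here as vessel genes: Pecam1, Cdh5, Kdr, Flt1, Tek, Vegfa, Angpt1, Angpt2, Lyve1 and Flt4. The genes were taken by symbol from the 46983 genes of each deposited table, and each of the 10 was found once in both tables. The skin came from C57BL/6 mice with no mutation or treatment named in the labels, which give neither age nor sex. Chin, ventral and dorsal skin had been taken at 6 stages of the hair cycle: competent telogen (the first rest), early anagen, mid anagen and late anagen (growth), catagen (involution) and refractory telogen (the early second rest). A second table holds 3 tissues, namely skin of the ear in telogen (2 libraries), the cartilage/muscle complex of the ear (3 libraries) and dorsal skin in competent telogen (2 libraries), the last with the same values as in the table of skin domains. The 43 libraries of the skin domains fall into 18 groups, of which 11 hold 2 libraries and 7 hold 3.

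Blood vessels are lined by endothelial cells joined through PECAM1 and VE-cadherin, the product of Cdh5. VEGF-A is received by the endothelial tyrosine kinases KDR (the main signalling receptor) and FLT1 (which also acts as a decoy), while angiopoietins act on TIE2, the product of Tek, with ANGPT1 as the stabilising ligand and ANGPT2 as its context-dependent antagonist. Lymphatic endothelium carries FLT4, the receptor of VEGF-C and VEGF-D, and LYVE1, a hyaluronan receptor that some tissue macrophages also carry. The vessels around hair follicles are known to be remodelled over the hair cycle.

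By the median log2 fold change of the 10 genes, the largest change between neighbouring stages was the ventral step from early to mid anagen (-0.88). The chin entry into refractory telogen (0.74) and the ventral entry into early anagen (0.71) came next. At this ventral entry the endothelial genes Pecam1, Cdh5, Kdr, Flt1 and Tek rose together in all 3 libraries. They reached levels that no other domain or stage reached, and they fell again by mid anagen. Over the first of these steps Lyve1 fell, and the fall of Flt4 did not pass the test. In chin skin the highest vessel gene levels lay instead in refractory telogen. In ear skin the levels of the lymph vessel genes Lyve1 and Flt4 lay above those of every library of the skin domains. Only dorsal competent and refractory telogen were tested against ear skin. The other skin groups, deposited in another table, are set beside it without a test.

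Values are FPKM, fragments per kilobase of transcript at a fixed depth, so that levels of different genes are set per length. Depth, estimated from the steps in the FPKM of 11825 single-transcript genes, ran from 6734842 to 29556224 fragments per library, with a median of 12939943. Fragments per gene were reckoned from FPKM, depth and the length of the gene's longest transcript, which overstates genes with shorter transcripts. On this reckoning the median library held about 456 fragments of Pecam1, 178 of Flt1, 173 of Cdh5, 153 of Kdr, 123 of Lyve1, 92 of Tek, 66 of Vegfa, 63 of Angpt2, 62 of Flt4 and 21 of Angpt1. Angpt1 was therefore the least precisely measured, with about 4 fragments in its lowest library. Nothing in the labels says whether replicates came from separate mice, so that p-values measure the spread between libraries. Tests used limma on log2(FPKM + 1), fold changes are on that scale and understate those of low genes, and each adjusted p is Benjamini-Hochberg over all genes tested, read at a threshold of 0.05. In RNA of whole skin, fewer vessel cells and less RNA per vessel cell cannot be told apart.

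Some libraries went against their labels or stood apart. The 2 dorsal competent telogen libraries held the hair shaft keratin Krt33a at 1975 and 1970 FPKM, against 423 and 402 in chin competent telogen and 333 to 418 in ventral competent telogen. A high level was not particular to them. In refractory telogen Krt33a was at 1851 and 2040 FPKM in ventral, 1749 and 1776 FPKM in dorsal and 437 to 811 FPKM in chin skin. These 2 libraries lay as close to the 2 chin late anagen libraries (root mean square log2 distance 0.425 to 0.454 over 4 pairs) as replicates lie to each other (0.398 to 0.695, median 0.488), while other pairs of libraries from different groups lay at least 0.489 apart. The replicates of chin mid anagen (0.695) and ventral refractory telogen (0.668) were the farthest apart of all replicate pairs. One ventral catagen library carries a location label of the rostral ear beside a ventral title. A comparison with the dorsal competent telogen or chin late anagen group itself has no value without these libraries. In a fit without both groups, chosen after the data were seen, 6 of 117 calls of vessel genes were lost, with adjusted p from 0.0513 to 0.0589. These were Angpt1 from dorsal late anagen to catagen, Lyve1 from dorsal catagen to refractory telogen, Cdh5 in catagen and Flt4 in refractory telogen between dorsal and chin skin, and Angpt1 in early anagen and Lyve1 in catagen between ventral and dorsal skin.

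On mm10 (GRCm38) Pecam1 lies at chr11:106654217-106750628 on the minus strand, Cdh5 at chr8:104101625-104144511 on the plus strand, Kdr at chr5:75932827-75978458 and Flt1 at chr5:147561604-147726011, both on the minus strand, and Tek at chr4:94739289-94874976 on the plus strand. Vegfa lies at chr17:46016993-46032369, Angpt1 at chr15:42424723-42676977, Angpt2 at chr8:18690263-18741562 and Lyve1 at chr7:110850607-110863239, these 4 on the minus strand, and Flt4 at chr11:49609263-49652739 on the plus strand. The values are sums over each gene's transcripts. Angpt1 shares exonic bases with the antisense gene Gm17473, and the labels name no strand-specific library, so reads of these genes cannot be told apart there.

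The promoters of Kdr, Flt1 and Tek, the 3 receptors that rose together in ventral early anagen, are shown because they are the receptors for the ligands followed here. The 250 bases before the RefSeq start were at hand for 5 of the 10 genes (GRCm38.p6), and AGGAAG, the core of many ETS sites, is in capitals where a search of both strands found it. Kdr covers chr5:75978456-75978705 on the minus strand, Flt1 covers chr5:147726012-147726261 on the minus strand and Tek covers chr4:94739039-94739288 on the plus strand.
Kdr: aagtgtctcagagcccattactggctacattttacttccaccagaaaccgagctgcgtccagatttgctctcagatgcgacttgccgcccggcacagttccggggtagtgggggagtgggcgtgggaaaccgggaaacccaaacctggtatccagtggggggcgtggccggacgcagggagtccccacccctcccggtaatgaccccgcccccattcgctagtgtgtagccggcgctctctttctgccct
Flt1: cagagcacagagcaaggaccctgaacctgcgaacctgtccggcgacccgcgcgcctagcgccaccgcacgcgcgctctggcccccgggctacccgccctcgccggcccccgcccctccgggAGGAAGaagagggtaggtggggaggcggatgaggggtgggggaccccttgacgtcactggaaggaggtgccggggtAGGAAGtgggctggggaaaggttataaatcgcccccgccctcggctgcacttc
Tek: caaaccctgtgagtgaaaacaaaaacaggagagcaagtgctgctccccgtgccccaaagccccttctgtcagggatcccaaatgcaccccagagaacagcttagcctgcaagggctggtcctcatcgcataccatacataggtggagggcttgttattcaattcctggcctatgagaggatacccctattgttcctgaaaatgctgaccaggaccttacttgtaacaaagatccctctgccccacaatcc
The Flt1 window holds AGGAAG at -129 to -124 and at -53 to -48 from the start, and 29.5% of 32851 promoter windows of the same length hold it at least once. The Kdr and Tek windows hold neither AGGAAG nor CGGAAG (13.6% of windows), AACAGGAA (2.25%) or ACGTG (16.6%), which says only that these letters are not in these windows.

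Pecam1, the general endothelial adhesion molecule, had the highest level of the vessel genes. It ran from a mean of 6.97 ± 0.144 FPKM (SD, n = 3) in dorsal mid anagen to 31.6 ± 0.593 FPKM (SD, n = 3) in ventral early anagen, a 4.53-fold range, and its median library held 10.0 FPKM. In ventral skin it was 10.7, 10.8 and 15.0 FPKM in competent telogen, 31.7, 30.98 and 32.2 FPKM in early anagen and 7.98 and 7.96 FPKM in mid anagen. All 3 early anagen libraries lay above every library of the other 17 groups, the next being dorsal early anagen with 17.9 and 18.5 FPKM. By limma Pecam1 rose by 1.32 ± 0.18 (log2 fold change ± SE, adjusted p = 5.63e-07) into ventral early anagen and fell by 1.86 ± 0.20 (adjusted p = 1.1e-08) into mid anagen.

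Cdh5, the adhesion molecule of endothelial junctions, followed the same course at a lower level. Its ventral libraries held 3.51, 3.14 and 4.13 FPKM in competent telogen, 12.4, 10.4 and 9.47 FPKM in early anagen and 3.17 and 4.08 FPKM in mid anagen. The early anagen libraries do not overlap those of any other group, and the second highest group, chin refractory telogen, held 5.53, 4.38 and 6.84 FPKM. Cdh5 rose by 1.35 ± 0.14 (log2, adjusted p = 1.12e-08) and fell by 1.35 ± 0.16 (adjusted p = 9.39e-08) over the 2 steps.

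Among the receptors, Kdr held 2.26, 1.96 and 2.23 FPKM in ventral competent telogen, 4.51, 5.21 and 5.15 FPKM in early anagen and 1.96 and 1.84 FPKM in mid anagen. Flt1 held 1.82, 1.88 and 1.69 FPKM, then 6.53, 6.36 and 6.23 FPKM, then 1.31 and 1.27 FPKM. Tek held 1.63, 1.82 and 1.38 FPKM, then 5.36, 4.94 and 6.62 FPKM, then 1.26 and 1.58 FPKM. For each of these 3 receptors the early anagen libraries lay above every other library of the skin domains. Into early anagen Flt1 rose by 1.40 ± 0.14 (log2, adjusted p = 4.47e-09), Tek by 1.34 ± 0.14 (adjusted p = 8.09e-09) and Kdr by 0.92 ± 0.11 (adjusted p = 6.63e-08). Into mid anagen they fell by 1.69, 1.45 and 1.04. The calls of Pecam1, Cdh5, Kdr, Flt1 and Tek over both steps held under every alternative setting tried. At a minimum of 5 FPKM, Kdr, Flt1 and Tek were tested only because their ventral early anagen libraries reached it. For these 3 receptors that setting therefore adds no support.

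**Figure D1:**
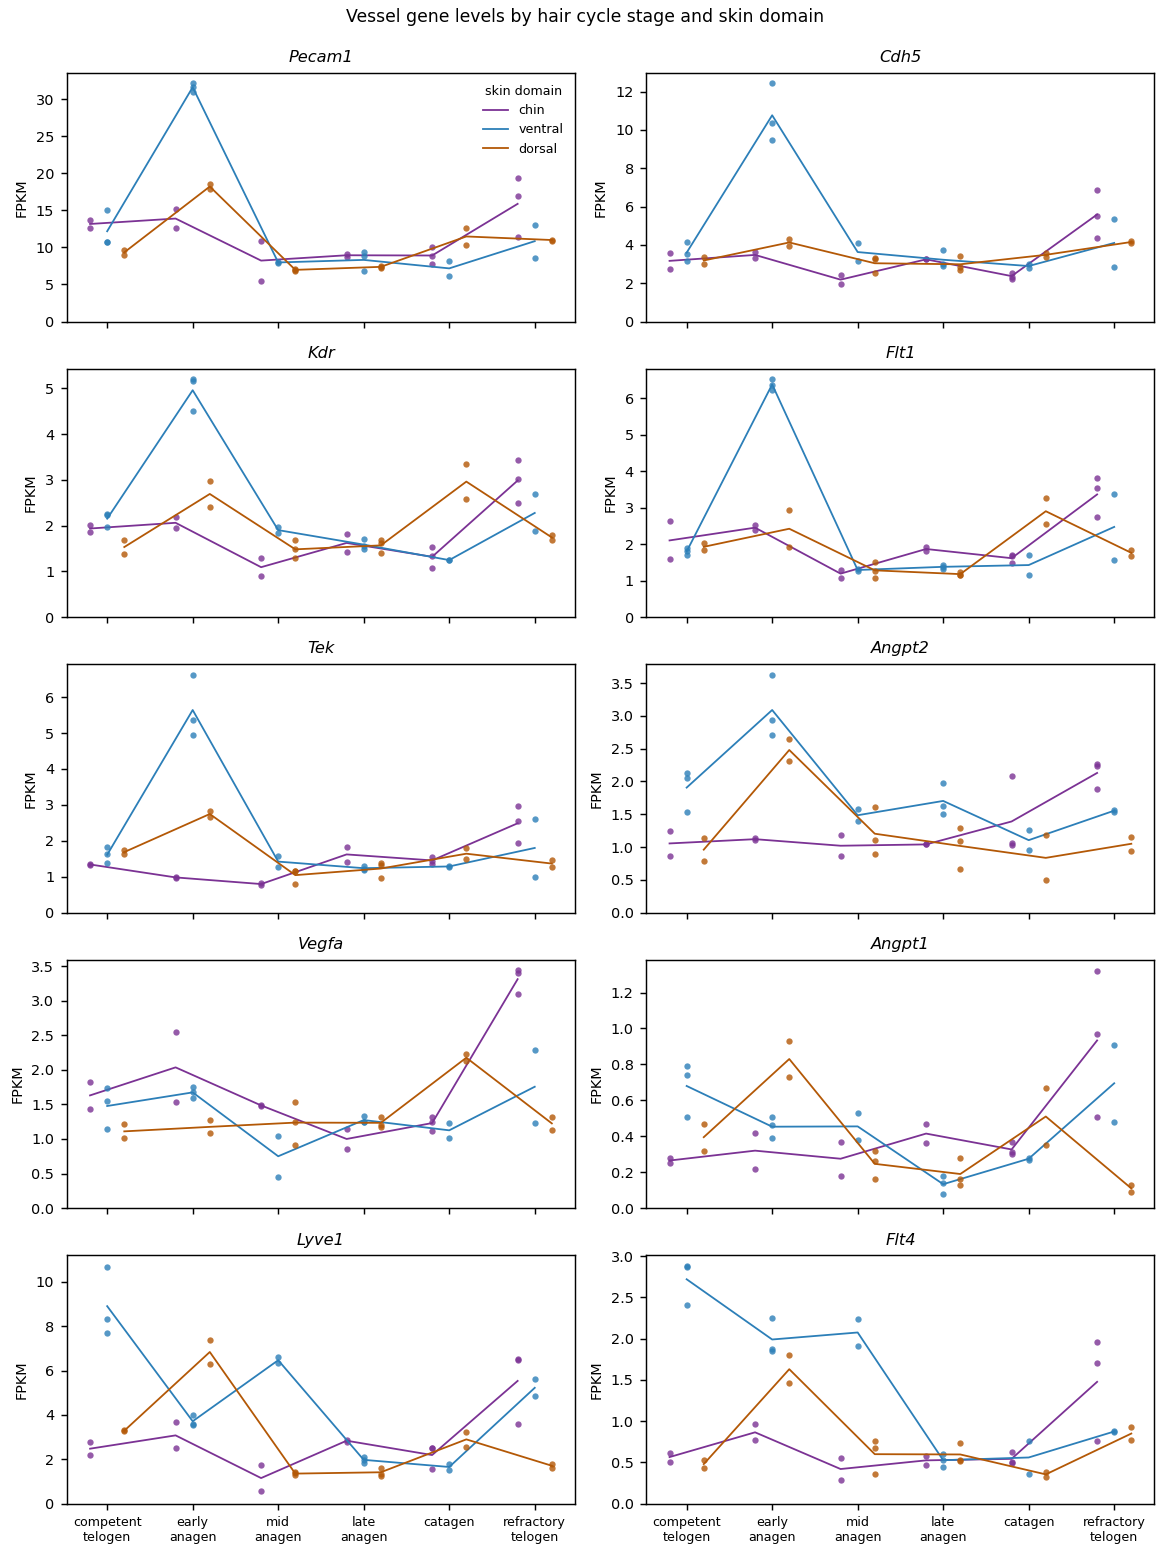
Levels of the 10 vessel genes in FPKM (vertical axis, from 0) over the 6 hair cycle stages (horizontal axis) in chin, ventral and dorsal skin. Each point is 1 library and the lines join the group means. The ventral early anagen libraries stand above all others for Pecam1 (30.98 to 32.2 FPKM), Cdh5, Kdr, Flt1, Tek and Angpt2, while Vegfa and Angpt1 have their highest mean in chin refractory telogen and Lyve1 and Flt4 in ventral competent telogen.

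Of the 3 ligands, Angpt2 passed the test at this step. Vegfa, the ligand of KDR and FLT1, held 1.15, 1.73 and 1.55 FPKM in ventral competent telogen and 1.68, 1.59 and 1.75 FPKM in early anagen, and the groups overlap (log2 difference 0.12, adjusted p = 0.53). Angpt1 held 0.74, 0.51 and 0.79 FPKM and then 0.39, 0.51 and 0.46 FPKM (log2 difference -0.21, adjusted p = 0.178). Angpt2, the TIE2 ligand made by activated endothelium, held 2.13, 2.05 and 1.54 FPKM and then 2.71, 3.63 and 2.93 FPKM, without overlap. Its rise of 0.49 ± 0.16 passed the test (log2, adjusted p = 0.0115), but not without the third competent telogen library (adjusted p = 0.0675) or the second early anagen library (adjusted p = 0.0701). Into mid anagen Angpt2 fell by 0.71 (adjusted p = 0.00139). Vegfa fell by 0.63 (adjusted p = 0.00102) to 1.05 and 0.45 FPKM, and without the second of these libraries its fall did not pass (adjusted p = 0.101).

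Of the lymph vessel genes, Lyve1 held 7.70, 10.7 and 8.33 FPKM in ventral competent telogen and 3.61, 4.0 and 3.54 FPKM in early anagen. The libraries do not overlap, and Lyve1 fell by 1.06 ± 0.17 (log2, adjusted p = 1.21e-05), the opposite direction to the blood endothelial genes. Flt4 held 2.88, 2.41 and 2.87 FPKM and then 1.85, 1.87 and 2.25 FPKM, and this difference of -0.32 did not pass the test (adjusted p = 0.0624). In mid anagen Lyve1 was at 6.34 and 6.60 FPKM, a rise of 0.66 (adjusted p = 0.00638) that did not pass without the second of these libraries (adjusted p = 0.0511). Both genes then fell into late anagen, Lyve1 by 1.33 ± 0.19 (adjusted p = 9.55e-06) to 2.10, 1.99 and 1.84 FPKM and Flt4 by 1.01 ± 0.15 (adjusted p = 1.37e-05) to 0.53, 0.45 and 0.60 FPKM, the 2 genes of the 10 called lower at this step (11.6% of all genes).

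In counts, 6 vessel genes rose and 1 fell into ventral early anagen, where 13.2% of all genes tested were called higher and 29.3% lower, and the median log2 fold change over all genes was -0.10. Into mid anagen 7 fell and 1 rose, with 25.6% of all genes called lower and 16.8% higher. Of 23 other blood endothelial genes, 20 rose and 1 fell into early anagen, with a median of 1.03. Of the most abundant of these, Cldn5, a claudin of endothelial tight junctions, rose by 0.97 (adjusted p = 1.27e-06) and Egfl7, a secreted endothelial factor, by 0.98 (adjusted p = 1.04e-07), while Plvap, of the diaphragms of fenestrated capillaries, differed by 0.32 (adjusted p = 0.0677). The 1 that fell was Cd34 (by 0.83, adjusted p = 6.4e-07), which blood progenitors, fibroblasts and hair follicle stem cells also carry.

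Lists of other cell types and pathways were counted over the same step. Of 8 tip cell and sprouting genes 5 rose and 1 fell, of 9 mural cell genes (pericytes and smooth muscle) 5 rose and 1 fell, of 8 other lymphatic genes 3 rose and 2 fell, and of 6 other VEGF and angiopoietin ligands and co-receptors 1 rose and 2 fell. Figf, which encodes VEGF-D, rose by 0.87 and the co-receptor gene Nrp2 fell by 1.5. Hypoxia-responsive genes had 3 of 10 higher and 3 lower, and none of 5 red blood cell genes passed the test. All 10 macrophage genes fell (median -1.48), as did all 8 fibroblast genes (median -1.66), and their summed levels went from 238-290 to 53.7-58.3 FPKM and from 6320-6440 to 2020-2070 FPKM per library. Of 6 interfollicular epidermal genes 3 rose and none fell (median 0.86), and their sum went from 7170-8050 to 15700-16300 FPKM, the highest of the skin groups. The part of these cell types in the levels of the vessel genes was not tested. The counts for the vessel and macrophage genes were unchanged when libraries were scaled by the median of ratios or by quantile normalization.

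**Figure D2:**
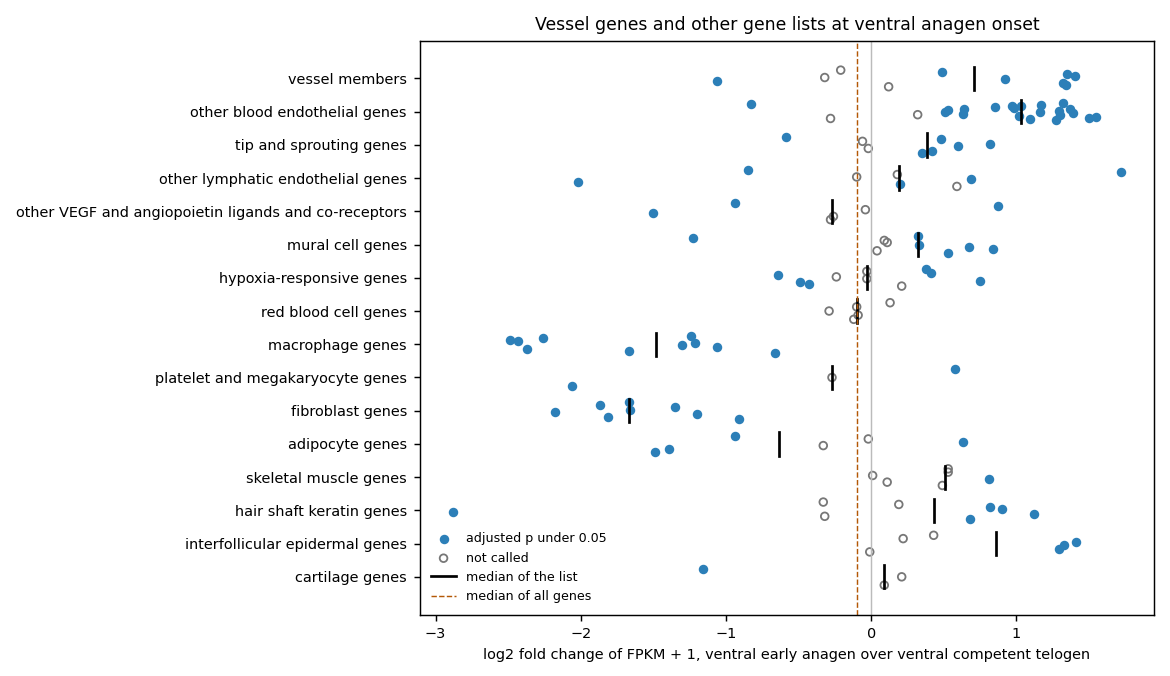
Log2 fold change of ventral early anagen over ventral competent telogen (horizontal axis) for each gene of the 10 vessel genes and of the other lists (vertical axis). Each dot is 1 gene, the black bar is the median of the list and the dashed line is the median of all genes tested (-0.10). The other blood endothelial genes centre on 1.03, with Cd34 at -0.83, and the macrophage and fibroblast genes on -1.48 and -1.66.

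Early anagen differed between the domains. Against chin early anagen, 7 vessel genes were higher in ventral early anagen and none lower, with 13% of all genes called higher and 19.8% lower. Tek differed most, at 1.00 and 0.96 FPKM in chin against 4.94 to 6.62 FPKM in ventral skin (log2 1.74 ± 0.16, adjusted p = 6.68e-10), followed by Cdh5 (1.39), Pecam1 (1.14), Flt1 (1.10), Kdr (0.96), Angpt2 (0.94) and Flt4 (0.68). Lyve1, Vegfa and Angpt1 differed by 0.22, -0.16 and 0.14 and did not pass (adjusted p = 0.423, 0.451 and 0.467). The 7 calls held under every alternative in which the gene was tested, with the same limit for Kdr, Flt1 and Tek at 5 FPKM. All 23 other blood endothelial genes were also higher, with a median of 1.42 against -0.06 over all genes, and of 8 lymphatic genes 7 were higher.

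Against dorsal early anagen, 5 vessel genes were higher in ventral skin and 2 lower, with 14% and 27.7% of all genes called. Cdh5 (log2 1.19, adjusted p = 7.49e-07), Flt1 (1.12, adjusted p = 1.43e-06), Tek (0.82, adjusted p = 0.000107), Pecam1 (0.76, adjusted p = 0.0025) and Kdr (0.69, adjusted p = 3.16e-05) were higher. These calls held under every alternative, with the same limit for Kdr, Flt1 and Tek at a minimum of 5 FPKM. Lyve1 was higher in the dorsal libraries, with 7.39 and 6.29 FPKM against 3.54 to 4.0 FPKM (-0.73, adjusted p = 0.00307), but the call was lost without the first dorsal library (adjusted p = 0.0522). Angpt1 was also higher there, with 0.73 and 0.93 FPKM against 0.39 to 0.51 FPKM (-0.33, adjusted p = 0.0482), a call that several alternatives ended. Skeletal muscle genes, carried by the muscle under dorsal skin, summed to 4700-4930 FPKM per dorsal library and 244-254 FPKM per ventral library, and macrophage genes to 158-176 and 53.7-58.3 FPKM. Their part in these differences was not tested.

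In dorsal skin both lymph vessel genes rose with Pecam1 at the entry into early anagen. Pecam1 went from 8.96 and 9.70 FPKM in competent telogen to 17.9 and 18.5 FPKM in early anagen, Lyve1 from 3.32 and 3.26 to 7.39 and 6.29 FPKM, and Flt4 from 0.43 and 0.53 to 1.80 and 1.46 FPKM, with no overlap. Thus 7 genes rose, with 35.2% of all genes called higher: Pecam1 by 0.90 (log2, adjusted p = 0.00129), Lyve1 by 0.87, Flt4 by 0.83, Angpt2 by 0.83, Kdr by 0.54, Tek by 0.48 and Angpt1 by 0.39. Over this step the median of all genes rose by 0.25, the shift of the whole distribution. When the median of ratios took this out, the vessel genes called higher were 2, Flt4 and Angpt2, and under quantile normalization 3. The share of all genes called under these scalings was not counted. This step rests on the dorsal competent telogen libraries whose hair keratins go against their label, and has no value without them.

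From dorsal early to mid anagen 8 vessel genes fell, with 30.1% of all genes called lower and a median of -0.18 over all genes, and these libraries include none of those doubted. Lyve1 fell by 1.73 ± 0.19 (log2, adjusted p = 3.52e-08) to 1.42, 1.37 and 1.28 FPKM, Pecam1 by 1.27 ± 0.20 (adjusted p = 8.12e-06) to 7.01, 6.81 and 7.09 FPKM, and Tek by 0.88 ± 0.16 (adjusted p = 5.41e-05) to 0.81, 1.17 and 1.15 FPKM. Flt4, Angpt2, Flt1, Kdr and Angpt1 fell by 0.55 to 0.72, of which Flt1, Angpt2 and Kdr did not pass under quantile normalization, nor Flt1 without the second early anagen library (adjusted p = 0.167). Cdh5 (-0.35, adjusted p = 0.0903) and Vegfa (0.03) did not pass. Of the other blood endothelial genes 22 of 23 fell. All 8 hair shaft keratin genes rose, with a median of 4.51. Other cell types fell over the same step, with 8 of 8 fibroblast genes, 6 of 6 skeletal muscle genes, 9 of 10 macrophage genes and 8 of 9 mural cell genes lower. The sums went from 5270-5300 to 1020-1090 FPKM for fibroblast, from 4700-4930 to 1020-1080 FPKM for muscle, from 158-176 to 49.8-52.2 FPKM for macrophage and from 197-221 to 88.9-95.6 FPKM for mural genes, and their part in the vessel gene levels was not tested.

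In chin skin no vessel gene was called at the entry into early anagen, and none had an unadjusted p under 0.05, at a step where 2.14% of all genes were called by limma. Flt1 held 2.62 and 1.58 FPKM before and 2.51 and 2.39 FPKM after, and Tek 1.32 and 1.36 FPKM before and 1.00 and 0.96 FPKM after. From early to mid anagen Lyve1, Pecam1, Flt1 and Kdr fell by 0.96, 0.75, 0.66 and 0.55, with 14.5% of all genes called lower. Of the mid anagen libraries, whose spread is wide, the first held 5.53 FPKM of Pecam1 and 1.76 FPKM of Lyve1 and the second 10.9 and 0.55 FPKM. Without the first the fall of Pecam1 did not pass (adjusted p = 0.381), and without the second that of Lyve1 did not (adjusted p = 0.0936).

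The chin vessel genes were high in refractory telogen. From catagen to refractory telogen all 10 rose, with 30.5% of all genes called higher. Lyve1 rose from 1.56, 2.52 and 2.5 FPKM to 6.53, 3.60 and 6.48 FPKM (log2 1.01 ± 0.17, adjusted p = 1.59e-05), Vegfa from 1.32, 1.25 and 1.12 FPKM to 3.09, 3.40 and 3.44 FPKM (0.95 ± 0.13, adjusted p = 8.34e-07), and Cdh5 from 2.24, 2.54 and 2.33 FPKM to 5.53, 4.38 and 6.84 FPKM (0.95 ± 0.14, adjusted p = 2.79e-06). None of these overlap between the stages. Kdr rose by 0.78, Pecam1 by 0.74, Flt1 by 0.73, Flt4 by 0.65, Angpt1 by 0.52, Tek by 0.50 and Angpt2 by 0.41. Tek was lost under quantile normalization (adjusted p = 0.112) and Angpt2 under 7 alternatives. The other 8 calls held under every alternative in which the gene was tested.

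From refractory to competent telogen 9 of these genes fell in chin skin, with 17.8% of all genes called lower. Lyve1 fell by 0.88, Vegfa by 0.72, Cdh5 by 0.65, Flt4 by 0.63, Angpt2 by 0.61, Angpt1 by 0.59, Tek by 0.56, Flt1 by 0.50 and Kdr by 0.43. The calls of Cdh5 and Angpt2 were lost without the first competent telogen library and that of Kdr without the second. Pecam1 differed by -0.22 (adjusted p = 0.42), with 13.7 and 12.7 FPKM against 16.9, 11.4 and 19.3 FPKM. Into refractory telogen 21 of 23 other blood endothelial genes, 8 of 8 lymphatic, 9 of 9 mural, 10 of 10 macrophage, 8 of 8 fibroblast and 6 of 6 skeletal muscle genes rose. Muscle genes summed to 2110-2240 FPKM per catagen library and 8430-12900 FPKM per refractory telogen library, and the part of this shift in the vessel gene levels was not tested.

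Refractory telogen also differed between chin and dorsal skin. In dorsal skin 8 vessel genes were lower than in chin skin, with 27.2% of all genes called lower and a median of -0.14 over all genes. Lyve1 held 1.81 and 1.61 FPKM (log2 -1.24 ± 0.19, adjusted p = 9.1e-06), Vegfa 1.13 and 1.32 FPKM (-0.95 ± 0.15, adjusted p = 9.03e-06) and Angpt1 0.13 and 0.09 FPKM (-0.78 ± 0.13, adjusted p = 3.28e-05). These 3 calls held under every alternative in which the gene was tested. Flt1, Angpt2, Tek, Kdr and Flt4 differed by -0.65 to -0.39 and were lost under at least 1 alternative each. Under quantile normalization 3 genes were called, and the share of all genes was not counted there. Of the other blood endothelial genes 20 of 23 were lower, as were 10 of 10 macrophage, 8 of 8 fibroblast and 6 of 6 skeletal muscle genes. Macrophage genes summed to 48.4-53.4 FPKM per dorsal and 271-456 FPKM per chin library, fibroblast genes to 1160-1200 and 2070-3410 FPKM and muscle genes to 2390-2530 and 8430-12900 FPKM, and their part in these differences was not tested. In ventral refractory telogen Vegfa was lower than in chin (-0.67, adjusted p = 0.000996). Its libraries held 1.23 and 2.28 FPKM, and without the first the call was lost (adjusted p = 0.0725).

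In ventral skin Lyve1 was higher in refractory telogen than in catagen. Lyve1 held 1.78 and 1.53 FPKM in ventral catagen, 4.84 and 5.61 FPKM in refractory telogen and 7.70 to 10.7 FPKM in competent telogen, with no overlap. Into refractory telogen Lyve1 rose by 1.23 ± 0.21 (log2, adjusted p = 4.4e-05), under every alternative, and Kdr, Flt1 and Angpt1 by 0.53, 0.47 and 0.40, so that 4 genes were called higher (14.9% of all genes). The calls of these 3 were lost without the first refractory telogen library, which held 3.38 FPKM of Flt1 where the second held 1.56 FPKM. Competent telogen was above refractory telogen for Flt4, with 2.41 to 2.88 against 0.88 and 0.87 FPKM (0.99 ± 0.15, adjusted p = 4.93e-06), under every alternative in which Flt4 was tested. The second gene called there was Lyve1 (0.66, adjusted p = 0.00641; 34.5% of all genes called higher), and its call was lost under the median of ratios (adjusted p = 0.267) and under quantile normalization (adjusted p = 0.373).

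In dorsal catagen Kdr and Flt1, the genes of the VEGF-A receptors, and their ligand gene Vegfa were at higher levels than in late anagen. Flt4, the receptor gene for VEGF-C and VEGF-D, was not called, at 0.52 to 0.74 FPKM and then 0.32 and 0.39 FPKM. Kdr went from 1.40, 1.61 and 1.69 FPKM in dorsal late anagen to 3.35 and 2.57 FPKM in catagen (log2 0.62 ± 0.12, adjusted p = 0.000128) and Flt1 from 1.23, 1.16 and 1.14 FPKM to 3.25 and 2.55 FPKM (0.84 ± 0.16, adjusted p = 9.07e-05), under every alternative. Vegfa went from 1.18, 1.2 and 1.32 FPKM to 2.23 and 2.12 FPKM (0.51, adjusted p = 0.0074), and this call was lost without the first catagen library (adjusted p = 0.0583). In all 6 genes rose over this step, the others being Pecam1, Lyve1 and Angpt1, with 20% of all genes called higher. Of the 23 other blood endothelial genes 4 rose and 9 fell (median -0.22), where 18.7% of all genes were called lower. The sum of these endothelial genes went from 154-169 to 112-114 FPKM. All 6 skeletal muscle genes rose, with sums of 305-328 and 1540-1590 FPKM, and of 10 macrophage genes 3 rose and 1 fell. Their part in the vessel gene levels was not tested. Kdr was also higher than in chin catagen (0.77, adjusted p = 6.08e-06) and ventral catagen was lower than dorsal for Kdr (-0.81, adjusted p = 1.52e-05), under every alternative. Tek (1.80 and 1.48 FPKM) and Cdh5 (3.38 and 3.58 FPKM) did not differ from late anagen by the test (adjusted p = 0.235 and 0.46).

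**Figure D3:**
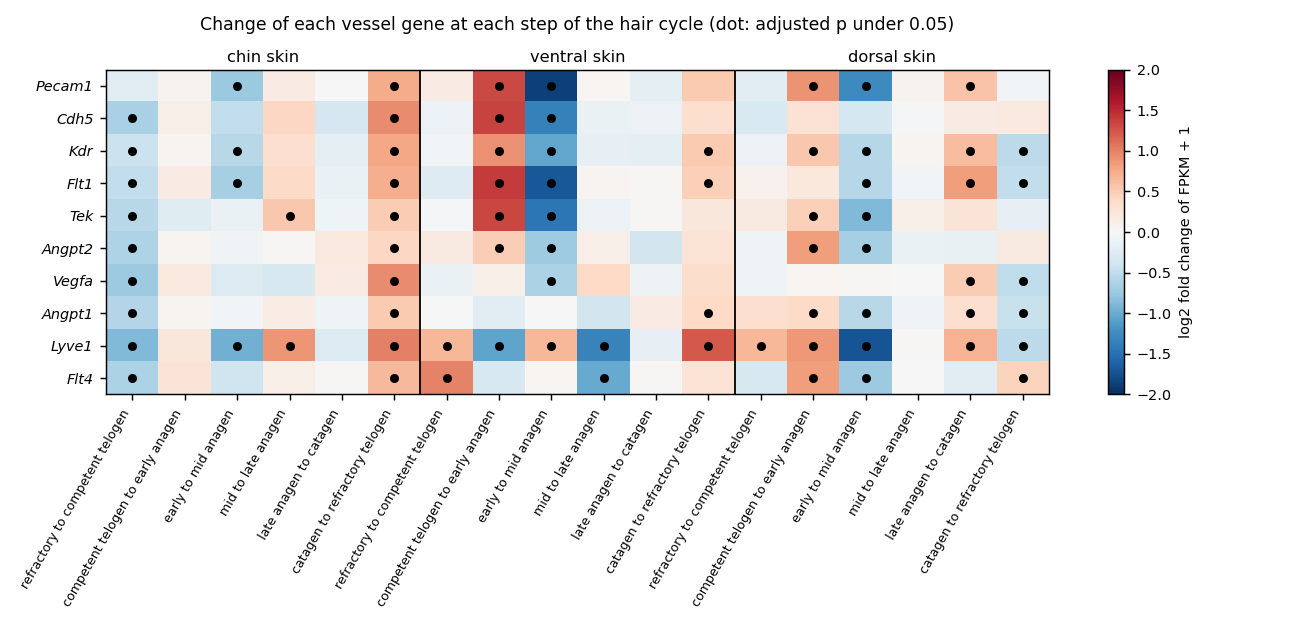
Log2 fold change of each of the 10 vessel genes (rows) from one stage to the next in chin, ventral and dorsal skin (18 columns), in colour with red higher and blue lower. Dots mark adjusted p under 0.05. The ventral entry into early anagen shows 6 genes higher and Lyve1 lower, the chin entry into refractory telogen all 10 higher, and the ventral entry into catagen and the dorsal entry into late anagen show no call.

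Over the 6 steps of each domain, gene-steps (60 in each) were called higher 12 times and lower 13 times in chin skin, 13 and 10 times in ventral skin and 15 and 13 times in dorsal skin. Over all genes the shares were 11.7% and 11.2%, 15.8% and 16.1%, and 16% and 15.7%. In the fit without the doubted groups, the 4 chin and 4 dorsal steps that remained gave 10 and 13 in chin skin and 6 and 12 in dorsal skin. Shares of all genes were not pooled for these steps in that fit. Tested over all 6 stages at once, the 10 genes varied in chin (66.2% of all genes did) and in ventral skin (70.2%), and 9 varied in dorsal skin (68.5%), all but Cdh5 (adjusted p = 0.131). Without the dorsal competent telogen and chin late anagen libraries these counts were 10 in chin (61.2% of all genes) and 9 in dorsal skin (66.2%), where Cdh5 had an adjusted p of 0.114. At 3 steps beside the chin entry into early anagen none of the 10 genes was called by limma: chin late anagen to catagen (1 of them with an unadjusted p under 0.05, 13.1% of all genes called), ventral late anagen to catagen (1, 5.93%) and dorsal mid to late anagen (0, 2.68%).

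At a given stage the domains differed most often in early anagen, for 9 of the 10 genes (51.6% of all genes), all but Vegfa (adjusted p = 0.0524). They differed for 7 genes in refractory telogen (42.2%), 5 in mid anagen (38.1%), 4 in competent telogen (54%), 3 in catagen (42.9%) and 1, Lyve1, in late anagen (20.8%). In late anagen Lyve1 held 2.80 and 2.88 FPKM in the doubted chin libraries and 1.36, 1.27 and 1.62 FPKM in dorsal skin, and the call of this pair (log2 -0.67, adjusted p = 0.014) was lost without either chin library (adjusted p = 0.0774 and 0.0955). Over the 6 stages ventral was above chin skin for 15 gene-stages and below for 2, with 9.46% and 12.1% of all genes called. The 2 became 9 without the second chin refractory telogen library, the lowest of its 3 for 9 of the genes, and 6 without the first ventral one. Dorsal skin was above chin for 9 and below for 10 (13.1% and 16.3%), and ventral above dorsal for 13 and below for 7 (15% and 13.3%). In the fit without the dorsal competent telogen and chin late anagen libraries, the stages that remained gave 15 and 2 for ventral against chin (5 stages), 8 and 8 for dorsal against chin (4 stages) and 9 and 5 for ventral against dorsal (5 stages). For these counts no share of all genes was taken. The count of 4 genes in competent telogen and the differences of ventral from dorsal skin at that stage rest on the doubted dorsal group. The course over the stages differed between domains for all 10 genes by the interaction test, as it did for 73.3% of all genes, and without the dorsal competent telogen and chin late anagen libraries for all 10 again (68.1%).

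Lyve1 and Flt4 were higher in ventral skin than in both other domains in competent telogen and mid anagen. In competent telogen Lyve1 held 2.78 and 2.18 FPKM in chin, 3.32 and 3.26 FPKM in dorsal and 7.70 to 10.7 FPKM in ventral skin. Flt4 held 0.51 and 0.62 FPKM in chin, 0.43 and 0.53 FPKM in dorsal and 2.41 to 2.88 FPKM in ventral skin. The ventral libraries of both genes lay above all libraries of the other domains at that stage. Ventral over chin, Lyve1 differed by 1.5 ± 0.19 (log2, adjusted p = 1.62e-06) and Flt4 by 1.25 ± 0.15 (adjusted p = 6.42e-07), within 4 genes called higher (15.5% of all genes), the others being Angpt2 and Angpt1. Ventral over dorsal, Flt4 differed by 1.33 (adjusted p = 3.44e-08) and Lyve1 by 1.2 (adjusted p = 9.06e-06), with 38% of all genes called higher.

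The same difference stood in mid anagen, where none of the doubted libraries of dorsal skin enter. Lyve1 held 6.34 and 6.60 FPKM in ventral skin against 1.76 and 0.55 FPKM in chin (log2 1.85 ± 0.21, adjusted p = 3.74e-07) and 1.28 to 1.42 FPKM in dorsal skin (1.66, adjusted p = 2.04e-07). Flt4 held 1.91 and 2.24 FPKM against 0.55 and 0.29 FPKM in chin (1.12, adjusted p = 1.77e-05) and 0.36 to 0.76 FPKM in dorsal skin (0.95, adjusted p = 2.51e-05). All 8 of these differences of Lyve1 and Flt4 held under every alternative in which they were tested. Flt4 was not tested at a minimum of 5 FPKM. The differences from dorsal skin in competent telogen have no value without the doubted libraries. In late anagen and catagen ventral over chin gave no call by limma for any of the 10 genes (15.6% and 5.19% of all genes, and 2 and 0 of the 10 with an unadjusted p under 0.05).

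As a ratio to Pecam1 within each library, both lymph vessel genes were lower in ventral early anagen than in the stages beside it, at a step where Pecam1 itself rose. The ratio of Lyve1 to Pecam1 FPKM was 0.719, 0.992 and 0.554 in ventral competent telogen, 0.114, 0.129 and 0.110 in early anagen and 0.794 and 0.829 in mid anagen. The ratio of Flt4 to Pecam1 was 0.269, 0.224 and 0.191, then 0.0584, 0.0604 and 0.0700, then 0.239 and 0.281. Neither ratio overlaps between early anagen and its neighbours. Over the 43 skin libraries the medians of the ratios were 0.25 and 0.0696, so that the Flt4 ratios in ventral early anagen lay near the median of all libraries. No test was made on these ratios.

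Because LYVE1 is not restricted to lymph vessels, the genes Prox1, Mmrn1, Mrc1 and Cd163 were set beside it, chosen after their values were seen. Prox1, the transcription factor of lymphatic endothelium, held 0.59, 0.66 and 0.90 FPKM in ventral competent telogen and 1.07, 0.88 and 0.97 FPKM in early anagen (log2 0.20, adjusted p = 0.0292). Mmrn1, also of the lymphatic list, held 4.56, 4.99 and 3.98 FPKM and then 3.61, 4.48 and 4.33 FPKM and was not called. The libraries of both genes overlap between the stages. The macrophage genes Mrc1 and Cd163 went from 5.83, 7.01 and 5.99 to 1.28, 1.27 and 1.30 FPKM (fell by 1.67) and from 3.83, 3.45 and 4.25 to 1.14, 1.02 and 1.12 FPKM (fell by 1.21). Of the 8 lymphatic genes tested, Foxc2 (by 1.72), Nr2f2 (by 0.69) and Prox1 rose and Pdpn (by 2.02) and Ccl21a (by 0.85) fell. The summed level of the list went from 342-447 to 198-215 FPKM. This sum is mostly Ccl21a and Pdpn, with means of 114 and 35.8 FPKM over the skin libraries, where the next gene, Nr2f2, had 3.12 FPKM. The part of macrophages in the level of Lyve1 was not tested.

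Over the 18 group means of log2(FPKM + 1), Flt4 correlated with Prox1 at r = 0.91, with Mmrn1 at 0.91, with Cd163 at 0.46 and with Mrc1 at 0.09. Lyve1 correlated with Flt4 at 0.81, with Prox1 at 0.79, with Mmrn1 at 0.76, with Cd163 at 0.75 and with Mrc1 at 0.58. Without ventral early anagen Flt4 correlated with Cd163 at 0.57 and with Mrc1 at 0.26, and Lyve1 at 0.78 and 0.65. The mean of the fibroblast genes followed Lyve1 at 0.94 and Flt4 at 0.79. These are descriptions over 18 groups that share domains and stages and may share batches. The 3 genes most like Lyve1 among 14631 compared were Agtr1a (0.974), Serpinf1 (0.972) and C1qtnf2 (0.958), and those most like Flt4 were Map1b (0.945), Ets1 (0.935) and Osr2 (0.934).

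**Figure D4:**
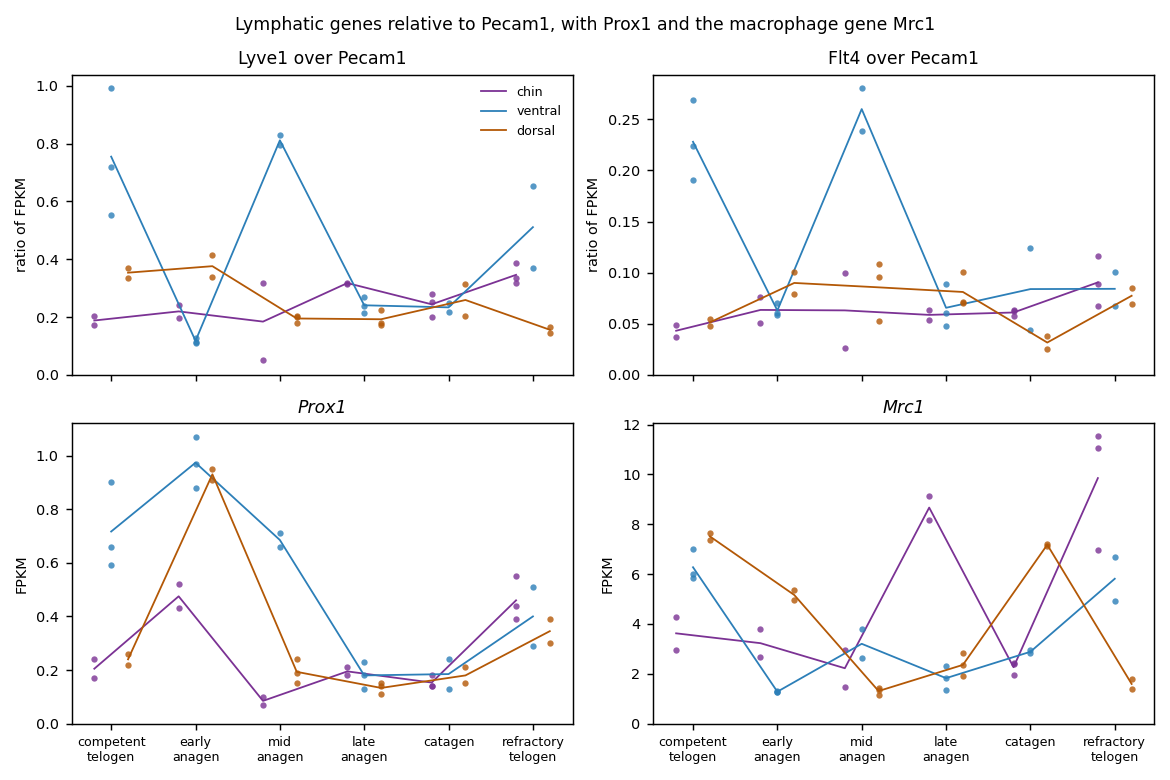
Ratios of Lyve1 and Flt4 to Pecam1 within each library, and levels of Prox1 and Mrc1 in FPKM, over the hair cycle stages in chin, ventral and dorsal skin; each point is 1 library. In ventral skin both ratios drop in early anagen (Lyve1 to Pecam1 0.110 to 0.129), where Prox1 was at 0.88 to 1.07 FPKM and Mrc1 at 1.27 to 1.30 FPKM.

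The blood vessel genes were alike in their courses. Over the 18 group means Pecam1 correlated with Flt1 at r = 0.92 and with Kdr at 0.90, Kdr with Flt1 at 0.92 and Cdh5 with Tek at 0.90. Without ventral early anagen these were 0.83, 0.80, 0.85 and 0.71. The genes nearest to Kdr were Cd93 (0.977), Ptprb (0.948) and Epas1 (0.938), to Flt1 Ptprb (0.957), Epas1 (0.954) and Podxl (0.931), to Cdh5 Mmrn2 (0.954), Adgrf5 (0.951) and Ptprb (0.935), and to Tek Mmrn2 (0.946), Epas1 (0.936) and Adgrf5 (0.926). Dock6 (0.927), Elk3 (0.925) and Flt1 (0.921) were nearest to Pecam1. Several of these, such as Ptprb (the endothelial phosphatase VE-PTP) and Cd93, are themselves known endothelial genes.

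The ligands had other neighbours. For Angpt2, whose own highest group was ventral early anagen (3.09 ± 0.48 FPKM, SD, n = 3), they were the endothelial genes Icam2 (0.93) and S1pr1 (0.924) and Sh2d3c (0.914). For Angpt1 they were B3galt2 (0.938), Lpl (0.913) and Acvr1c (0.913), of which Lpl, lipoprotein lipase, is a gene of adipocytes, and the mean of the adipocyte genes followed Angpt1 at 0.83. For Vegfa they were 1500011K16Rik (0.894), Arhgap44 (0.876) and Tnrc6a (0.842). Vegfa correlated with its receptor gene Kdr at 0.51.

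Angpt1 had its highest mean in chin refractory telogen (0.933 ± 0.406 FPKM, SD, n = 3), but libraries of 6 other groups reached into that range. The 18 groups ordered by Angpt1 hold no neighbouring pair whose libraries stand apart. For the other genes between 1 (Vegfa) and 5 (Lyve1) of 17 neighbouring pairs stand apart, so the order of the levels below the highest groups is mostly within the spread. Vegfa was highest in chin refractory telogen (3.31 ± 0.192 FPKM, SD, n = 3) and second in dorsal catagen, and lowest in ventral mid anagen (0.75 ± 0.424 FPKM, SD, n = 2). Angpt2 exceeded Angpt1 in 42 of the 43 skin libraries, by a median ratio of 3.44, and the exception was the second dorsal catagen library (0.731). The ratio of Flt1 to Kdr lay above 1 in 22 of 43 libraries and was 1.45, 1.22 and 1.21 in ventral early anagen and 0.668 and 0.690 in ventral mid anagen.

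The ear table was compared within itself. The dorsal group there is the pair of competent telogen libraries doubted above, so comparisons with dorsal refractory telogen, chosen after the data were seen, are given beside them. The refractory telogen libraries come from the skin domains, and they too held Krt33a at a high level (1749 and 1776 FPKM). The tissue labels were checked by marker genes: all 6 cartilage genes and all 6 skeletal muscle genes were higher in the cartilage/muscle complex than in ear skin, with medians of 6.39 and 4.0 (log2), and all 6 epidermal genes were lower (median -10.76).

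Ear skin had the highest lymph vessel gene levels of the 3 tissues. Lyve1 held 11.3 and 11.5 FPKM in ear skin, 6.56, 6.90 and 6.62 FPKM in the cartilage/muscle complex and 3.32 and 3.26 FPKM in dorsal skin, and Flt4 held 3.62 and 4.43 FPKM, 1.06, 0.80 and 1.21 FPKM, and 0.43 and 0.53 FPKM. The libraries of the 3 tissues do not overlap for either gene. Ear over dorsal skin, Flt4 differed by 1.76 ± 0.14 (log2, adjusted p = 0.000127) and Lyve1 by 1.53 ± 0.07 (adjusted p = 1.39e-05), and against dorsal refractory telogen by 1.44 and 2.19 (adjusted p = 0.000334 and 5.73e-06). Prox1 was at 1.32 and 1.31 FPKM in ear skin and at 0.49, 0.30 and 0.36 FPKM in the complex, and Mrc1 at 17.0 and 16.2 FPKM and at 4.49, 3.89 and 4.04 FPKM. Macrophage genes summed to 538-574 FPKM per ear skin library and 125-145 FPKM in the complex, and their part in Lyve1 was not tested.

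Angpt2 was also highest in ear skin, with 3.16 and 2.77 FPKM there, 1.18, 1.37 and 1.09 FPKM in the complex and 1.14 and 0.78 FPKM in dorsal skin (ear over dorsal 1.02 ± 0.13, adjusted p = 0.000932). Its complex and dorsal libraries overlap, and this difference did not pass (0.18, adjusted p = 0.224). In all 8 vessel genes were higher in ear than in dorsal skin and none lower, with 44.7% and 14.6% of all genes called and a median log2 fold change of 0.33 over all genes. Pecam1, Vegfa, Angpt1, Tek and Kdr differed by 0.40 to 0.69 and were each lost under at least 1 alternative. Under the median of ratios 4 vessel genes were higher and 1 lower, and the share of all genes was not counted there. Flt1 (0.05) and Cdh5 (-0.16) did not pass. Against dorsal refractory telogen Cdh5 was lower in ear skin (-0.46, adjusted p = 0.0043).

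In the cartilage/muscle complex Flt1 and Angpt1 were higher, and Flt4, Lyve1 and Angpt2 lower, than in ear skin. Flt1 held 4.32, 3.92 and 3.99 FPKM against 1.89 and 2.18 FPKM (log2 0.74 ± 0.09, adjusted p = 0.000506) and Angpt1 2.68, 2.16 and 2.72 FPKM against 1.12 and 1.23 FPKM (0.69 ± 0.11, adjusted p = 0.00203). These 2 were called higher, with 28% of all genes, and 3 were called lower, with 38.5%, namely Flt4 (-1.31 ± 0.13, adjusted p = 0.000191), Angpt2 (-0.84 ± 0.12, adjusted p = 0.00109) and Lyve1 (-0.69 ± 0.06, adjusted p = 0.000156). All 5 held under every alternative in which the gene was tested, and none of these libraries is doubted. At a minimum of 5 FPKM only Lyve1 of the 5 was tested. Vegfa held 3.04, 5.72 and 3.43 FPKM against 2.27 and 2.53 FPKM, which did not pass (0.54, adjusted p = 0.0735), and Cdh5 did not either (0.22, adjusted p = 0.0546).

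Angpt1 exceeded Angpt2 in each of the 3 complex libraries, with Angpt2 to Angpt1 ratios of 0.440, 0.634 and 0.401, while the ear skin libraries had 2.82 and 2.25. The Flt1 to Kdr ratio was 1.70, 1.41 and 1.51 in the complex and 0.825 and 0.916 in ear skin. Against dorsal skin the complex had 7 vessel genes higher (42.8% of all genes, with a median of 0.24 over all genes): Angpt1 by 1.33, Vegfa by 1.23, Pecam1 by 0.93, Lyve1 by 0.84, Flt1 by 0.80, Kdr by 0.53 and Flt4 by 0.45. The call of Flt4 was lost against dorsal refractory telogen (0.13, adjusted p = 0.424). Of the other blood endothelial genes, 18 of 23 were higher and 2 lower in the complex than in dorsal skin, where 28.3% of all genes were called lower. Against ear skin 3 were higher and 8 lower.

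**Figure D5:**
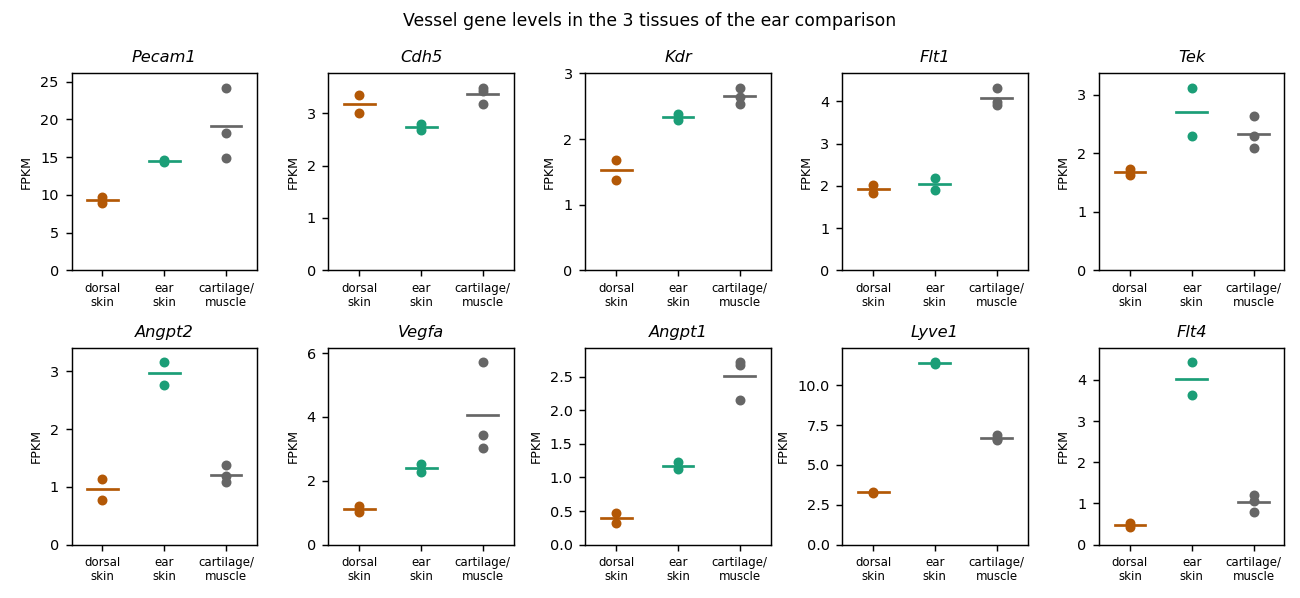
Levels of the 10 vessel genes in FPKM (vertical axes, from 0) in dorsal skin in competent telogen, in skin of the ear and in its cartilage/muscle complex. Points are libraries and bars are means. Lyve1 and Flt4 are highest in ear skin (Lyve1 11.3 and 11.5 FPKM), and Flt1 and Angpt1 in the cartilage/muscle complex (Flt1 3.92 to 4.32 FPKM).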

How the data were processed

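RNA of 48 distinct libraries, made by the SMART-seq2 protocol from 100 ng of total RNA with an integrity number over 8.0 per the labels, had been sequenced as paired ends. The authors aligned reads to mm10 with GENCODE vM8, estimated FPKM per gene with RSEM 1.2.25, corrected for batches that they do not name, and used edgeR 3.14.0 on FPKM. The deposited FPKM values were used here as log2(FPKM + 1); no counts were at hand, so no count model was fitted. A gene was tested where 2 libraries or more reached 0.5 FPKM, which left 21257 genes of the skin table and 19299 of the ear table, all 10 vessel genes among them. Limma 3.58.1 in R 4.3.3, with a variance trend, was fitted over 18 domain and stage groups and over 3 ear tissues and was tested on simulated data. Whether the deposited FPKM carry the authors' batch correction is not known here. They still show the steps of whole fragments from which depth was estimated. A correction, or batches left in the values, can shift levels between groups by an unknown amount.

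The vessel genes and the other lists were chosen with earlier results of these data known. Beside the vessel genes, the text names up to 4 genes of a list by mean level and the 3 genes with the highest correlation to each vessel gene over 18 group means. Prox1, Mmrn1, Mrc1 and Cd163 are named outside this rule and were chosen after their values were seen. Same-numbered libraries of different groups did not deviate together (mean r 0.003 over 327 pairs, of which 9 exceeded 0.1), so numbers were not used as pairs. Alternatives were a pseudocount of 0.1, no filter, a minimum of 5 FPKM, rescaling to TPM, quantile normalization, scaling by the median of ratios, a fit with no variance trend, a replicate block, fits of only the libraries compared, and each library left out. Among the skin libraries Kdr, Flt1 and Tek reached 5 FPKM only in ventral early anagen. Under that minimum their calls with this group are no support. Vegfa, Angpt1, Angpt2 and Flt4 did not reach 5 FPKM in any skin library and were not tested there under that minimum. Added after the data were seen were fits without the dorsal competent telogen and chin late anagen libraries, and dorsal refractory telogen in place of competent telogen beside the ear tissues. Gene positions came from GENCODE vM21 on GRCm38 and promoters from RefSeq. Python 3.11.15, numpy 2.4.6, pandas 2.3.3 and matplotlib 3.10.9 were used.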

Additional observations from a re-analysis of the deposited data

Results flagged for a closer look

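For each of the 10 vessel genes the course over the 6 hair cycle stages differed between chin, ventral and dorsal skin by a moderated F test over the 10 interaction terms of limma, which 73.3% of all genes tested also passed. The adjusted p was 2.43e-09 for Lyve1, 9.74e-08 for Kdr, 2.34e-07 for Tek, 3.56e-07 for Flt4, 1.43e-06 for Flt1, 5.68e-06 for Cdh5, 4.53e-05 for Vegfa, 9.33e-05 for Angpt1, 0.000331 for Pecam1 and 0.00124 for Angpt2. Without the dorsal competent telogen and chin late anagen libraries all 10 passed again (68.1% of all genes), with adjusted p from 2.57e-08 (Lyve1) to 0.00061 (Angpt2).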

How the results depend on the processing

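Of 152 single calls of vessel genes, 79 held under every alternative in which they were tested, 73 were ended by at least 1 and 0 reversed. At a minimum of 5 FPKM 89 of these calls were tested, and without the doubted groups 117. Lost were 34 under quantile normalization, 21 under the median of ratios, 14 without the filter and 142 of 727 with 1 library left out, where a lone library left in a group is assumed to vary like the other groups.

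A minimum of 5 FPKM left 6 vessel genes, which lowers counts by itself: over the stages 6 in chin, 6 in ventral and 5 in dorsal skin; dorsal steps 9 higher and 8 lower; domains 1 in competent telogen and 3 in mid anagen; ventral over chin 9 higher and 1 lower, dorsal over chin 5 and 5, ventral over dorsal 8 higher; interaction 6; ear over dorsal skin 2 higher, complex over dorsal skin 2 higher, complex over ear skin 0 higher and 1 lower. The cause was not tested for the counts that follow. Shares of all genes were counted for the main fit, the F tests without the doubted groups and dorsal refractory telogen beside the ear tissues. Counts under the other alternatives have no such share to be read against. Under the median of ratios domains differed for 2 genes in competent telogen and 2 in late anagen, ear over dorsal skin gave 4 higher and 1 lower, complex over dorsal skin 1 lower and complex over ear skin 4 higher. Quantile normalization gave 2 genes in competent telogen, 0 in late anagen and 3 in refractory telogen, 0 lower ventral over chin, 4 lower dorsal over chin, 3 higher and 2 lower ear over dorsal skin, and 6 higher complex over ear skin. Without the filter there were 3 genes in mid anagen, 0 in late anagen and 5 higher ear over dorsal skin. Fits of only the libraries compared gave 2 genes in mid anagen, 2 in late anagen, 2 in refractory telogen and 6 lower dorsal over chin. TPM gave 0 in late anagen and 8 lower ventral over chin, and a pseudocount of 0.1 gave 2 in late anagen. Dorsal refractory telogen as the dorsal group gave 1 lower for ear skin and 1 lower for the complex (13% and 26.5% of all genes). With the replicate block, late anagen had 2 genes, 4 single calls were lost and no other count moved by over 1.5 times; the numbers are no pairing by design.

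With each library left out in turn, the counts of genes that differed between domains ran from 2 to 4 in competent telogen (2 without the first ventral library), 2 to 6 in mid anagen (2 and 3 without either chin library, 3 without the second ventral one), 0 to 2 in late anagen (0 without either chin library or the first or second dorsal one) and 2 to 5 in catagen. Ventral over chin ran from 1 to 9 lower (9 without the second chin refractory telogen library), ventral over dorsal from 3 to 8 lower (4 and 3 without either ventral catagen library), ear over dorsal skin from 4 to 8 higher (4 without the second ear skin or dorsal library, 5 without the first dorsal one) and complex over ear skin from 2 to 5 higher (5 without the second complex library).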
